A study of Mus musculus with 24 samples.

Results

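ATF4 is the transcription factor at the end of the cell's amino acid stress pathway, and many enzymes that make, carry or charge amino acids are its target genes. Described here are Atf4, 16 genes known as its partners or targets and 20 genes of the cytosolic aminoacyl-tRNA synthetases, 37 genes in all out of 29758 gene symbols in the count table. They were chosen by symbol from known function, with earlier results of these data known. Of rows that share a symbol the one with the highest count was kept. All 37 passed the filter on low counts, as did 15719 symbols in the whole table.

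RNA was sequenced from whole back skin of wild type male C57BL/6NCrl mice, a common inbred strain, at about 8 weeks of age, with hair follicles labelled as telogen (resting). All mice ate regular chow only during a daily window of 4 h for 18 to 21 days, in a 12 h light and 12 h dark cycle that had lights on at ZT0. Food was given from ZT12 to ZT16 in the group named EN, from ZT5 to ZT9 in MD and from ZT0 to ZT4 in ED. Each group had 8 libraries, taken every 4 h between ZT0 and ZT28, and each library was made from RNA of 2 to 4 animals pooled together. No group fed without restriction is among them, so every comparison is between times since food was opened or between meal times. Pools were classed by the hours since food was last opened, namely 3 to 8 h (7 pools), 11 to 16 h (8 pools) and 19 to 24 h (9 pools, the last hours before the next meal). In the class of 3 to 8 h, the MD pool of ZT8 was taken while food was still given. The ED pools of ZT4 and ZT28 and the EN pool of ZT16 were taken as food was closed. In what follows, after food means 3 to 8 h and before food 19 to 24 h since food was opened. Pools taken at different times and from different feeding groups stand in for replicates within a class, and p-values reflect how much such pools vary.

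Depth ranged from 13222667 to 26316851 exon counts per pool. Markers of the cell types of skin were all detected, with summed levels of 5226 to 8045 CPM (counts scaled by library size) for 5 keratinocyte genes, 17619 to 53107 CPM for 4 fibroblast genes and 6739 to 20448 CPM for 6 skeletal muscle genes. Markers of the growing hair follicle were Krt71, Krt27, Krt25, Krt28, Krt73 and Tchh. They summed to 2685 CPM in the EN pool of ZT0 and 967 CPM in the ED pool of ZT24. The other 22 pools had 15.1 to 68.9 CPM, although all pools are labelled telogen. In whole tissue, fewer cells of a type and less RNA per cell cannot be told apart. The MD pool of ZT0 gave the lowest of the 9 values of its class for 15 of the 37 genes, and the MD pool of ZT16 the lowest of 8 for 20.

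When amino acids run short or proteins misfold, kinases phosphorylate the translation factor eIF2; most translation then slows, but the ATF4 message is translated more. Growth signalling through mTORC1 also raises ATF4 translation. ATF4 pairs with other bZIP proteins and binds a composite element, the C/EBP-ATF response element, near genes for amino acid synthesis, uptake and tRNA charging. Because ATF4 is controlled largely at translation and only RNA was measured, none of the values here is a level of ATF4 protein.

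The element was searched as TGATGNAA on both strands in RefSeq promoter windows (build GRCm38.p6, 250 bases before to 50 after the start). It was found in 10 of the 28 genes with such a window (35.7%), against 1219 of 27025 genes in the table (4.51%); genes known as ATF4 targets were chosen, so this is a description of the choice. The 10 were Asns, Chac1, Trib3, Nupr1, Slc7a11, Aars, Gars, Iars, Tars and Yars. Cars, Hars, Lars, Mars, Nars, Rars, Vars, Wars and Slc7a5 were not searched. The lines that follow show the match in capitals, with its neighbouring bases 5′ to 3′ on the gene's strand, for Tars and Chac1, which both passed the test below and held a match before their RefSeq start, and then for the asparagine synthetase and cystine transporter genes.
Tars, chr15:11399659-11399684, minus strand: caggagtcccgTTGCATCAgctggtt
Chac1, chr2:119351023-119351082, plus strand: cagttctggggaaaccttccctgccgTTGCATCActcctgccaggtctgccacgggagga
Asns, chr6:7693214-7693243, minus strand: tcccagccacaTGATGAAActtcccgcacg
Slc7a11, chr3:50443646-50443705, minus strand: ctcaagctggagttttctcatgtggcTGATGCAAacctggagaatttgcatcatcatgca
In Tars and Chac1 the match reads on the strand opposite to the gene, and in Asns and in the Slc7a11 match in capitals on the same strand. The matches begin 15, 193, 23 and 66 bases before the RefSeq starts of Tars, Chac1, Asns and Slc7a11. The gene positions given further on are GENCODE's, whose starts differ: there the Asns match lies 22 bases inside the gene, in an exon annotated as UTR, and the other 3 lie before the start. The Slc7a11 stretch also holds a further match left in lower case, ttgcatca, on the opposite strand, which begins 47 bases before the RefSeq start. A match is a run of letters and not a measured binding site.

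The main question was whether these genes differ between the first hours after food was opened, which include part of the meal, and the hours before the next meal. At 3 to 8 h after food was opened, 8 of the 37 genes were higher than at 19 to 24 h and 1 was lower. Those higher were Atf4, its relative Atf5, the one-carbon enzyme gene Mthfd2 and the synthetase genes Aars, Iars, Tars, Wars and Farsb. The one lower was Chac1, which encodes an enzyme that breaks down glutathione, so a gene that ATF4 is known to induce stood opposite to Atf4 itself. Over all 15719 genes tested, 2.39% were called higher and 2.46% lower. By edgeR, 24 of the 37 genes had an unadjusted p under 0.05, as did 3458 of the 15719. The median log2 fold change was 0.22 over the 37 genes and 0.0027 over all genes. Because the genes were chosen with earlier results of these data known, the contrast with all genes is a description. Calls are by edgeR's quasi-likelihood F test with feeding group and clock time in the model and Benjamini-Hochberg adjustment over all genes, at an adjusted p of 0.05.

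**Figure D1:**
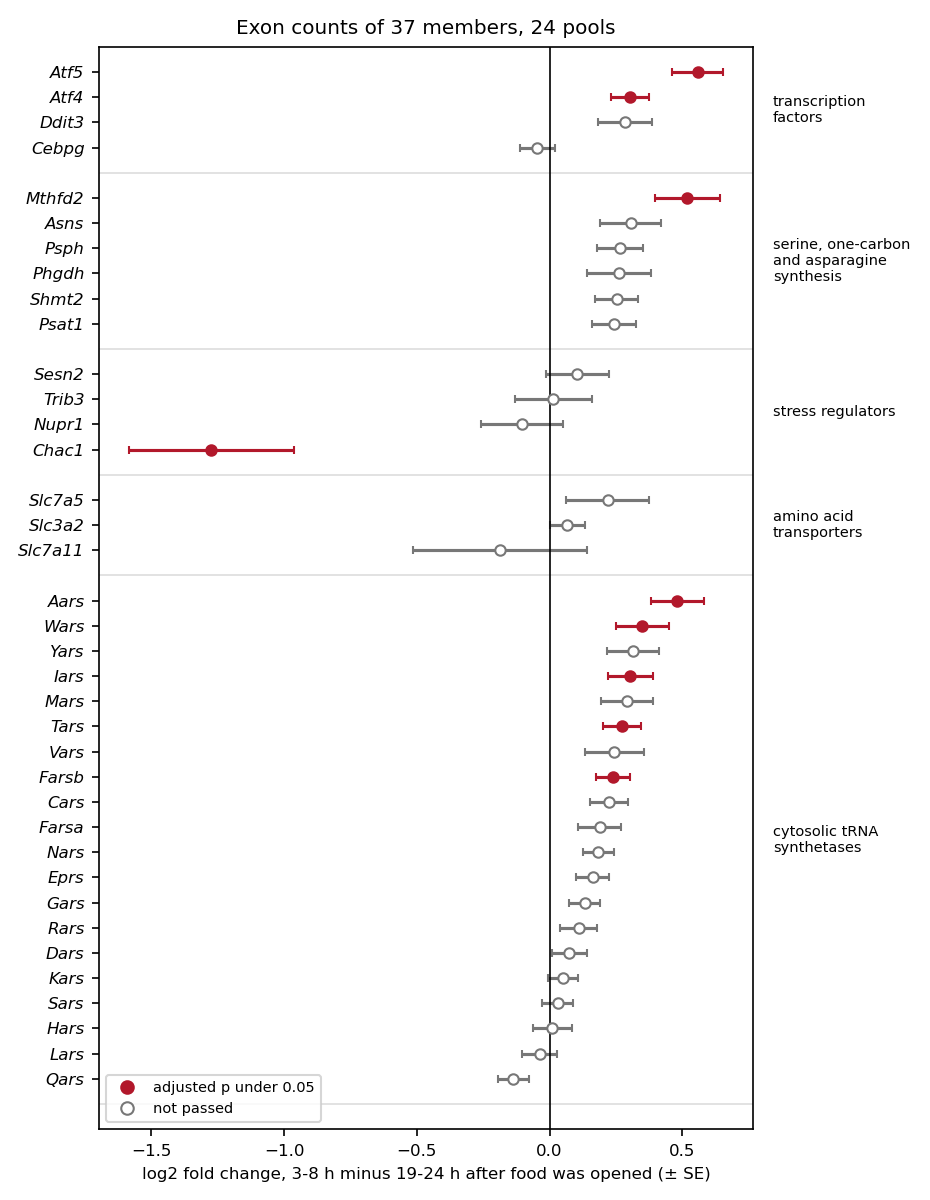
Log2 fold change (± SE) of exon counts of the 37 genes, 3 to 8 h against 19 to 24 h after food was opened, grouped by role on the vertical axis. Red filled points passed the test and grey open points did not; all red points lie right of 0 but Chac1, at -1.27.

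Of the 4 transcription factor genes, 2 were higher after food and none was lower. Atf4 (chr15:80255184-80257541 in mm10, plus strand) had 122 to 145 CPM, with a median of 128 CPM, at 3 to 8 h, against 92.0 to 125 CPM with a median of 110 CPM at 19 to 24 h. In 5 of the 7 pools taken after food, Atf4 lay above all 9 pools taken before it. The log2 fold change was 0.30 ± 0.07 (SE), with an adjusted p of 0.0195 by edgeR's quasi-likelihood test. Atf5 (chr7:44812256-44816658, minus strand), a bZIP factor that is itself controlled through eIF2, had 35.0 to 59.9 CPM with a median of 42.0 CPM, against 23.6 to 35.4 CPM with a median of 31.8 CPM before food. The EN pool of ZT20 was the highest of all and the MD pool of ZT28 the lowest, and 6 of 7 pools after food lay above all 9 before it. Its log2 fold change was 0.56 ± 0.10, with an adjusted p of 0.00224 by edgeR's quasi-likelihood test. Ddit3, which encodes CHOP, a factor linked to prolonged stress, had a log2 fold change of 0.28 ± 0.10 and did not pass (adjusted p = 0.109, edgeR). Cebpg, the partner with which ATF4 often binds, had -0.05 ± 0.07 and did not pass either (adjusted p = 0.731, edgeR).

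Of the 6 enzyme genes for serine, one-carbon and asparagine synthesis, only Mthfd2 was called. It encodes the mitochondrial enzyme that oxidises one-carbon units made from serine (chr6:83305691-83325908, minus strand). Its level was 6.59 to 15.9 CPM, median 10.6 CPM, after food and 5.30 to 9.78 CPM, median 7.17 CPM, before it. The highest value was in ED at ZT8 and the lowest in MD at ZT0; 4 of 7 pools after food lay above all 9 before it. The log2 fold change was 0.52 ± 0.12 with an adjusted p of 0.0185 by edgeR's quasi-likelihood test. The other 5 did not pass: Asns, which makes asparagine, had 0.31 ± 0.12, the serine pathway genes Psph, Phgdh and Psat1 had 0.27 ± 0.09, 0.26 ± 0.12 and 0.24 ± 0.08, and Shmt2, which passes serine carbon to folate in mitochondria, 0.25 ± 0.08 on the log2 scale. Their adjusted p ran from 0.0730 for Shmt2 to 0.201 for Phgdh (edgeR).

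Chac1 (chr2:119351229-119354381, plus strand) was the one stress regulator gene called, and the lowest log2 fold change of the 37. Its level was 2.68 to 6.17 CPM, median 3.57 CPM, after food, against 5.45 to 23.2 CPM, median 11.1 CPM, before it. Of the 7 pools after food, 6 lay below all 9 pools before it, and the EN pool of ZT16 overlapped them. The log2 fold change was -1.27 ± 0.31, with an adjusted p of 0.0222 by edgeR's quasi-likelihood test, on 3794 exon counts over the 24 pools. Between the classes, at 11 to 16 h, Chac1 spread from 3.83 CPM in EN at ZT24 to 29.4 CPM in EN at ZT0, although both were taken 12 h after food at the same clock time. The other stress regulators were not called: Trib3, a pseudokinase gene, had 0.01 ± 0.14, Sesn2, which encodes a restraint on mTORC1, 0.10 ± 0.12, and Nupr1, a small nuclear stress protein gene, -0.10 ± 0.15 on the log2 scale.

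None of the 3 amino acid transporter genes was called. Slc7a5, the carrier of large neutral amino acids, had a log2 fold change of 0.22 ± 0.16, its heavy chain Slc3a2 0.07 ± 0.06 and the cystine carrier gene Slc7a11 -0.19 ± 0.33. Slc7a11 was the rarest of the 37, at 0.978 to 2.87 CPM after food and 1.02 to 3.01 CPM before it, with 827 exon counts over all 24 pools, so only a large difference could have been seen.

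Among the 20 cytosolic tRNA synthetase genes, 5 were higher after food and none was lower, with a median log2 fold change of 0.19. Each of these enzymes joins an amino acid to its tRNA. Aars, for alanine (chr8:111033144-111057664, plus strand), had 68.2 to 105 CPM with a median of 93.9 CPM, against 53.0 to 84.1 CPM with a median of 66.5 CPM before food, and 5 of 7 pools after food lay above all 9 before it. Its log2 fold change was 0.48 ± 0.10 with an adjusted p of 0.00938 by edgeR's quasi-likelihood test. Aars overlaps the coding gene Exosc6 on the same strand, so its counts may hold reads of both. Tars, for threonine (chr15:11382301-11399665, minus strand), had 61.4 to 75.2 CPM, median 64.7 CPM, after food and 47.8 to 59.8 CPM, median 57.6 CPM, before it. Tars was the only one of the 37 genes for which the pools of these classes did not overlap; over all 15719 genes tested, the pools after food lay wholly above those before it for 0.312% and wholly below for 0.134%. Its log2 fold change was 0.27 ± 0.07 with an adjusted p of 0.0303 by edgeR's quasi-likelihood test.

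Iars, for isoleucine (chr13:49682100-49734267, plus strand), had 52.1 to 80.9 CPM, median 59.5 CPM, after food, against 46.3 to 66.5 CPM, median 55.7 CPM, before it. The classes overlapped widely, with 3 of 7 pools after food above all before it, and the log2 fold change was 0.30 ± 0.08 (adjusted p = 0.0417, edgeR). Wars, for tryptophan (chr12:108860030-108894174, minus strand), had 23.3 to 32.1 CPM, median 24.9 CPM, after food and 17.4 to 26.8 CPM, median 20.1 CPM, before it. Only the ED pool of ZT28 lay above all pools before food, and the log2 fold change was 0.35 ± 0.10 (adjusted p = 0.0471, edgeR). Farsb, a subunit of the phenylalanine enzyme (chr1:78417975-78488897, minus strand), had 37.2 to 45.6 CPM, median 42.4 CPM, after food and 31.5 to 39.0 CPM, median 35.6 CPM, before it. Here 5 of 7 pools after food lay above all before it, and the log2 fold change was 0.24 ± 0.06 (adjusted p = 0.0355, edgeR). Farsa, the other subunit of that enzyme, had 0.19 ± 0.08 and was not called. The remaining uncalled synthetase genes ran from -0.14 ± 0.06 for Qars, for glutamine, to 0.31 ± 0.10 for Yars, for tyrosine, on the log2 scale. Yars, Cars and Nars had the smallest adjusted p among them, 0.0674, 0.0692 and 0.0724 (edgeR), while Hars, Lars, Sars and Kars had log2 fold changes of -0.04 to 0.05.

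The 28 genes that were not called held some with similar patterns of single pools. Shmt2 had 32.4 to 43.3 CPM, median 36.9 CPM, after food, against 25.6 to 35.5 CPM, median 32.3 CPM, before it. Yars had 35.0 to 49.3 CPM, median 40.6 CPM, after food and 23.7 to 38.4 CPM, median 34.7 CPM, before it. For both genes 6 of the 7 pools after food lay above all 9 before it, with the MD pool of ZT0 lowest. Asns had 23.7 to 33.9 CPM, median 30.2 CPM, after food, against 14.99 to 28.9 CPM, median 21.9 CPM, before it. Psat1 had 73.0 to 87.3 CPM, median 74.9 CPM, after food and 48.4 to 75.2 CPM, median 63.2 CPM, before it. In Asns and Psat1 all 7 pools after food lay above the median before it, but only 4 and 3 lay above all 9. Qars ran the other way, at 91.6 to 106 CPM, median 103 CPM, after food and 101 to 120 CPM, median 110 CPM, before it, with no pool after food above the median before it. Eprs, which had the most reads of the synthetase genes, had 170 to 216 CPM, median 186 CPM, after food and 149 to 186 CPM, median 181 CPM, before it. Kars, for lysine, was the steadiest after food, at 72.6 to 77.6 CPM, inside its range of 63.9 to 83.1 CPM before food.

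**Figure D2:**
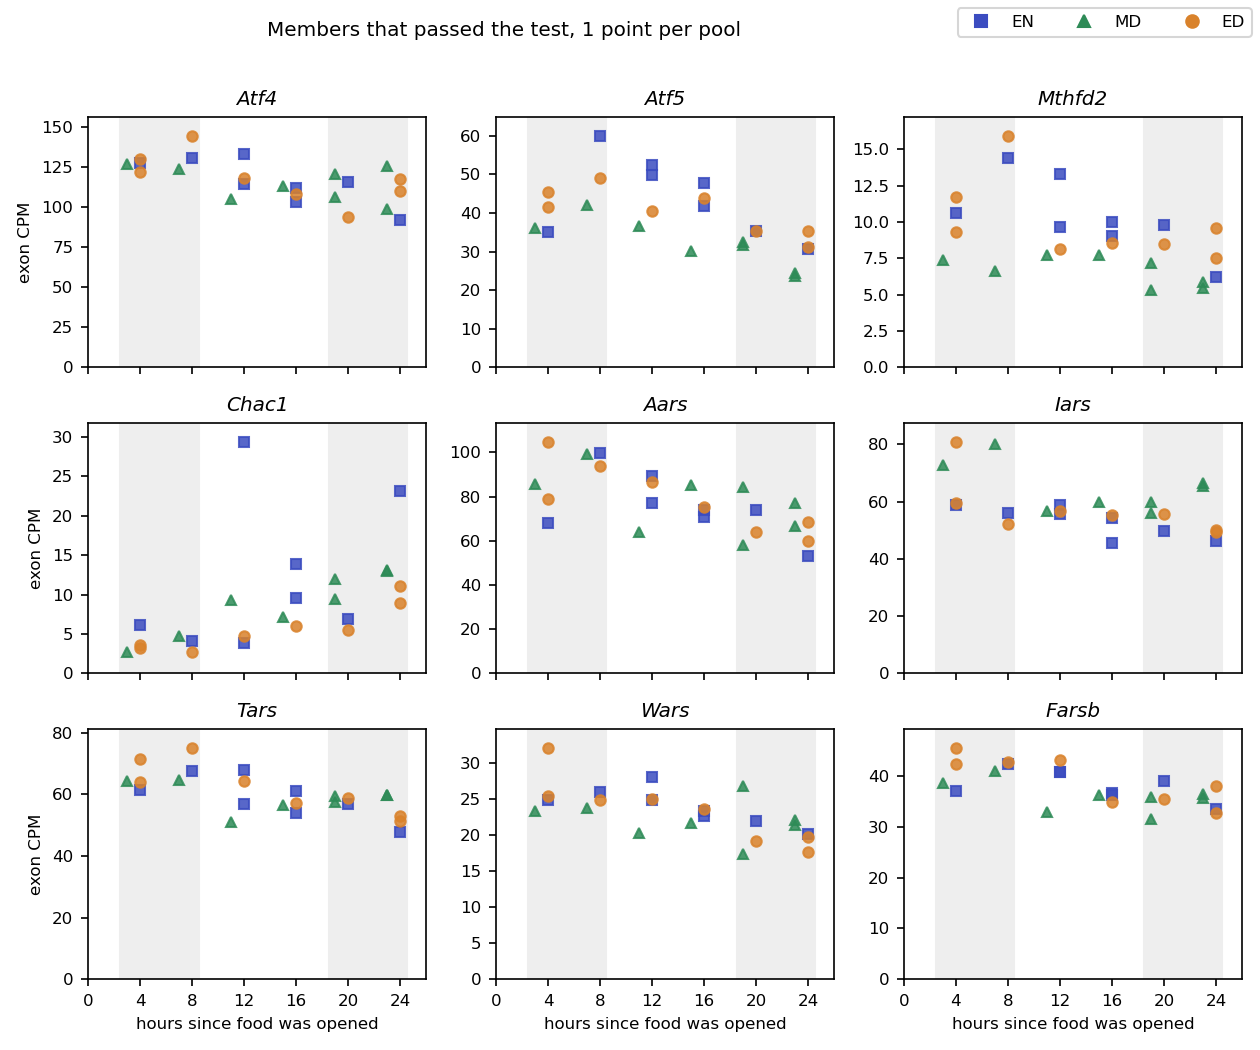
Exon CPM of the 9 genes that passed the test against hours since food was opened, 1 point for each of the 24 pools (EN squares, MD triangles, ED circles); shaded bands mark the classes of 3 to 8 h and 19 to 24 h. For Tars the lowest pool in the left band, at 61.4 CPM, lies above the highest in the right band, at 59.8 CPM, while the other 8 genes overlap.

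Within each feeding group, the mean log2 CPM after food minus that before food was taken as a description, from pools that differ in clock time. It was above 0 in EN, MD and ED alike for 22 of the 37 genes and below 0 in all of them for 3, against 19.9% and 20.1% of all genes tested. The 9 called genes are among these 25, but they were called on the same pools, so that their shared sign is largely fixed by the call. Atf5 differed by 0.47 in EN, 0.49 in MD and 0.42 in ED, Aars by 0.40, 0.38 and 0.52, and Chac1 by -1.31, -1.69 and -1.33. Atf4 differed by 0.32 in EN, 0.16 in MD and 0.30 in ED, and Wars by 0.27, 0.12 and 0.53. A test of whether the difference itself varied between the groups called none of the 37 genes by edgeR's quasi-likelihood test, with 0 of 37 also at an unadjusted p under 0.05, against 5.92% of all genes, and 0 by DESeq2. In all, 0.00636% of genes were called in that test by edgeR, and 54 genes by DESeq2. With 2 to 4 pools of each class in a group, it does not show that the groups respond alike.

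Marker genes and the share of intron reads were set beside the classes. The summed keratinocyte markers had a median of 7406 CPM (6599 to 7783 CPM) at 3 to 8 h, against 6059 CPM (5226 to 7014 CPM) at 19 to 24 h, with no marker at 0. Of the keratinocyte, skeletal muscle, adipocyte, immune and fibroblast markers only Krt1 was called, at 0.44 ± 0.11 on the log2 scale. Skeletal muscle sums were 9912 to 20024 CPM, median 13165 CPM, after food and 6739 to 19761 CPM, median 12118 CPM, before it. In the model used for the 37 genes, which holds feeding group and clock time, all 6 muscle markers had log2 fold changes above 0, from 0.30 to 0.48 with a median of 0.42, none of them called. The 5 keratinocyte markers ran from 0.02 to 0.44, with a median of 0.17. All 4 adipocyte markers (-0.38 to -0.15) and all 4 immune markers (-0.27 to -0.15) lay below 0, and the 4 fibroblast markers ran from -0.27 to 0.10, with none called. Intron reads were a median of 35.8% of exon, intron and antisense reads after food (33.5 to 38.4%), against 38.7% before it (32.9 to 42.5%). The part of these in the results was not tested. When the code L1 to L8 in the labels, which is not explained there and marks 3 pools each, took the place of feeding group, none of the 37 genes was called by edgeR, with 9 residual degrees of freedom in place of 14. In that fit Atf5 had 0.15, Mthfd2 0.14, Aars 0.43 and Chac1 -1.39 on the log2 scale, and 9 of the 37 had an unadjusted p under 0.05, as did 13.7% of all genes. Over all genes 3 were called higher and 13 lower there, so the loss of calls was not particular to the 37. Leaving out a single pool brought the number of genes called higher down to between 2 and 5 for the MD pools of ZT4 and ZT12, the ED pools of ZT20 and ZT28 and the EN pools of ZT0, ZT8, ZT12, ZT16, ZT20 and ZT24; only Atf5 and Aars were called whichever pool was left out, and Chac1 was not called without the MD pool of ZT12, the ED pool of ZT28 or the EN pool of ZT12 or ZT20. Of the 24 fits that each left out 1 pool, Wars was not called in 19, Iars in 15 and Farsb in 9. Tars was not called in 7, Mthfd2 in 6 and Atf4 in 4. For the single pools whose loss left 2 to 5, calls over all genes fell too. They were 147 to 347 higher and 154 to 361 lower, against 376 and 386 with all pools. Without both the ED pool of ZT24 and the EN pool of ZT0, which carried RNA of the growing follicle's markers, 5 were higher and 1 lower. Over all genes 370 were then higher and 375 lower. Farsb, Iars and Wars were then not called, with log2 fold changes of 0.23, 0.29 and 0.33 and adjusted p of 0.0537, 0.0675 and 0.0643 (edgeR); these fold changes are close to those over all 24 pools.

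**Figure D3:**
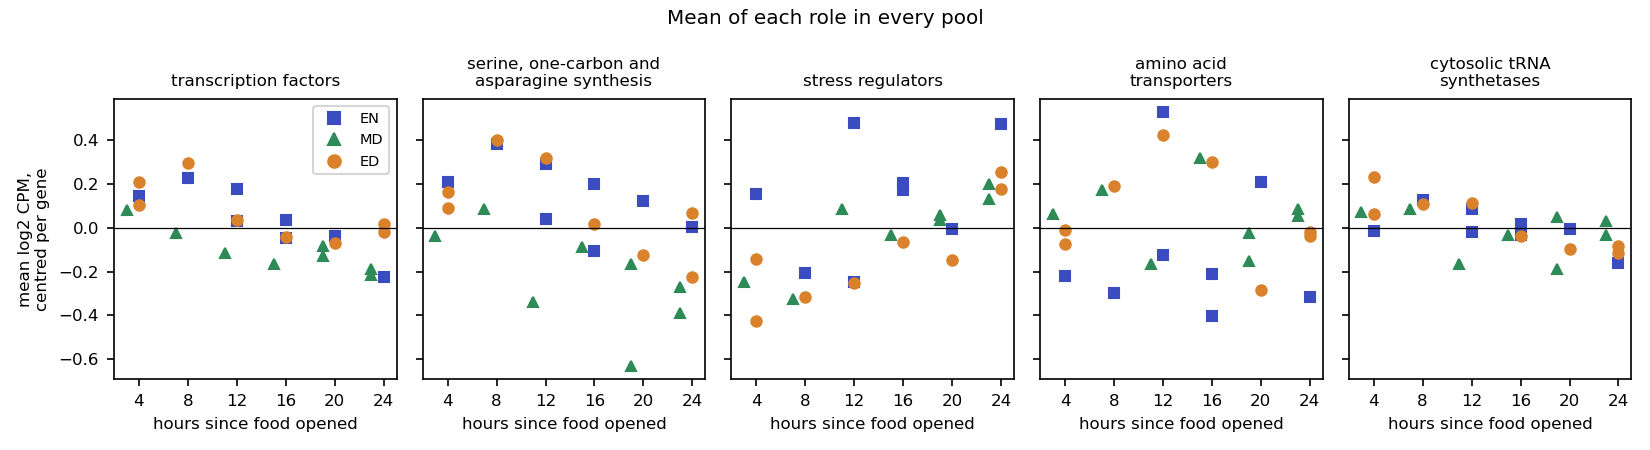
Mean over the genes of each role of log2 CPM, centred for each gene on its mean over the 24 pools, against hours since food was opened; each point is a pool (EN squares, MD triangles, ED circles). Class medians at 3 to 8 h and at 19 to 24 h are 0.15 and -0.08 for transcription factors, 0.16 and -0.17 for the enzymes, 0.09 and -0.08 for synthetases and -0.25 and 0.13 for stress regulators, of which only Chac1 was called.

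Neighbouring parts of the pathway were counted in the same comparison. Of 29 other genes known as ATF4 targets, 26 were tested, of which 2 were higher and 3 lower, with a median log2 fold change of 0.03. Xpot, which encodes the exporter of tRNA from the nucleus, and Cbs, of cysteine synthesis, were higher, at 0.30 ± 0.07 and 0.37 ± 0.10 (adjusted p = 0.0135 and 0.0395, edgeR). Ddit4, which encodes the mTORC1 inhibitor REDD1, the glutamine carrier gene Slc1a5 and the autophagy gene Map1lc3b were lower, at -0.65 ± 0.16, -0.53 ± 0.14 and -0.23 ± 0.07 on the log2 scale (adjusted p = 0.0257, 0.0290 and 0.0480, edgeR). None of 15 genes for eIF2, its kinases, its exchange factor and its phosphatase was called, with a median of 0.02. Of 17 mitochondrial synthetase genes, Lars2 was higher, at 0.37 ± 0.10 (adjusted p = 0.0327, edgeR), and none was lower, with a median of 0.09. The 3 scaffold genes of the synthetase complex, Aimp1, Aimp2 and Eef1e1, had a median of 0.28 and none was called.

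By class medians, the pools of 11 to 16 h lay between the others for 7 of the 9 called genes, the exceptions being Atf5 and Tars. At 3 to 8 h against 11 to 16 h, none of the 37 genes was called by edgeR; 7 had an unadjusted p under 0.05, as did 9.33% of all genes, and DESeq2 called 0. In that comparison 0.165% of all genes were called higher and 0.0954% lower by edgeR, and DESeq2 called 114 genes in all. At 11 to 16 h against 19 to 24 h, Atf5 alone was called higher and none lower, where 0.337% of all genes were called higher and 0.382% lower. Atf5 had 30.2 to 52.5 CPM, median 42.9 CPM, at 11 to 16 h, against the 23.6 to 35.4 CPM before food given above. The log2 fold change was 0.46 ± 0.09 with an adjusted p of 0.0243 by edgeR's quasi-likelihood test. Among the other ATF4 targets, the mitochondrial folate gene Aldh1l2 and the proline synthesis gene Pycr1 were higher at 11 to 16 h than at 19 to 24 h, at 0.98 ± 0.22 and 1.06 ± 0.21, and Ddit4 was lower, at -0.71 ± 0.16 on the log2 scale (adjusted p = 0.0361, 0.0214 and 0.0382, edgeR).

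A curve with a period of 24 h was fitted in hours since food and in ZT within 1 model. Atf5, Mthfd2 and Aars had a rhythm in hours since food, with adjusted p of 0.00252, 0.0456 and 0.0395 by edgeR's quasi-likelihood test, where 2.18% of all genes were called. Atf5 peaked 9.98 ± 0.60 h (SE) after food was opened with an amplitude, from mean to peak, of 0.34 ± 0.05 on the log2 scale. Mthfd2 peaked at 8.87 ± 0.92 h with an amplitude of 0.32 ± 0.08, and Aars at 9.22 ± 0.93 h with 0.27 ± 0.07. The errors of these 3 peaks overlap. Without the ZT terms, or without the second day, 1 gene was called in hours since food in place of 3. Calls over all genes were not counted in those fits, so the drop cannot be read as particular to the 37. No gene of the 37 had a rhythm in ZT by edgeR, where 1.57% of all genes were called. For ZT, 7 of the 37 had an unadjusted p under 0.05, as did 16.2% of all genes, and DESeq2 called 0 of the 37 and 581 in all. Fitted group by group in ZT, Atf5 was rhythmic in EN, with a peak at ZT22.9 ± 0.8 h and an adjusted p of 0.0341 (edgeR), where 1.06% of all genes were called. In MD none of the 37 was called by edgeR, where 0.942% of all genes were called. There 9 of the 37 had an unadjusted p under 0.05, as did 15.7% of all genes, and DESeq2 called 0 of the 37 and 494 in all. In ED only Psph was called, with a peak at ZT10.1 ± 0.8 h and an adjusted p of 0.0446 (edgeR), where 0.719% of all genes were called. Both calls within groups were lost without the ED pool of ZT24 and the EN pool of ZT0, and also without the second day, in fits where calls over all genes were not counted. The fitted peak of Atf5 was at ZT22.9 in EN, ZT14.2 ± 1.2 h in MD and ZT9.47 ± 1.35 h in ED, in the order of the meals. Atf5 was called in hours since food on these same pools, so that this order is largely fixed by that call.

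Reads from introns, which come mostly from RNA not yet spliced, gave a second readout from other reads of the same pools. Of the 37 genes, 36 passed the filter on intron rows, and Chac1 did not. At 3 to 8 h against 19 to 24 h, 5 were higher and none was lower, where 3.65% of 14585 intron rows were called higher and 4.86% lower. Mthfd2 introns had 3.16 to 7.50 CPM, median 4.67 CPM, after food, against 1.13 to 3.64 CPM, median 2.85 CPM, before it. The classes overlapped, and the log2 fold change was 0.90 ± 0.24. Atf5 introns had 2.67 to 5.69 CPM, median 4.57 CPM, after food, against 2.03 to 3.85 CPM, median 2.83 CPM, before it, and a log2 fold change of 0.62 ± 0.18. These 2 genes were called in exon and in intron rows alike (adjusted p = 0.0234 and 0.0348 in intron rows, edgeR). Ddit3, Cars and Eprs, the last encoding the joint enzyme for glutamate and proline, were called in intron rows, at 0.42 ± 0.10, 0.30 ± 0.08 and 0.22 ± 0.06 (adjusted p = 0.0101, 0.0258 and 0.0340, edgeR), and not in exon rows. The intron values of Atf4 were 2.56 to 4.57 CPM after food and 1.499 to 4.12 CPM before it, and it was not called there. Median intron counts per pool after and before food were 36 and 41 for Atf4, 48 and 39 for Atf5 and 55 and 35 for Mthfd2. The intron values of these genes thus rest on few reads. Of the 36 genes, 29 had the same sign in exon and intron rows. With the scaling factors of the exon rows in place of those of the intron rows, 2 of the 36 were called higher and none lower, and over all intron rows 262 were higher and 597 lower, in place of 532 and 709.

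**Figure D4:**
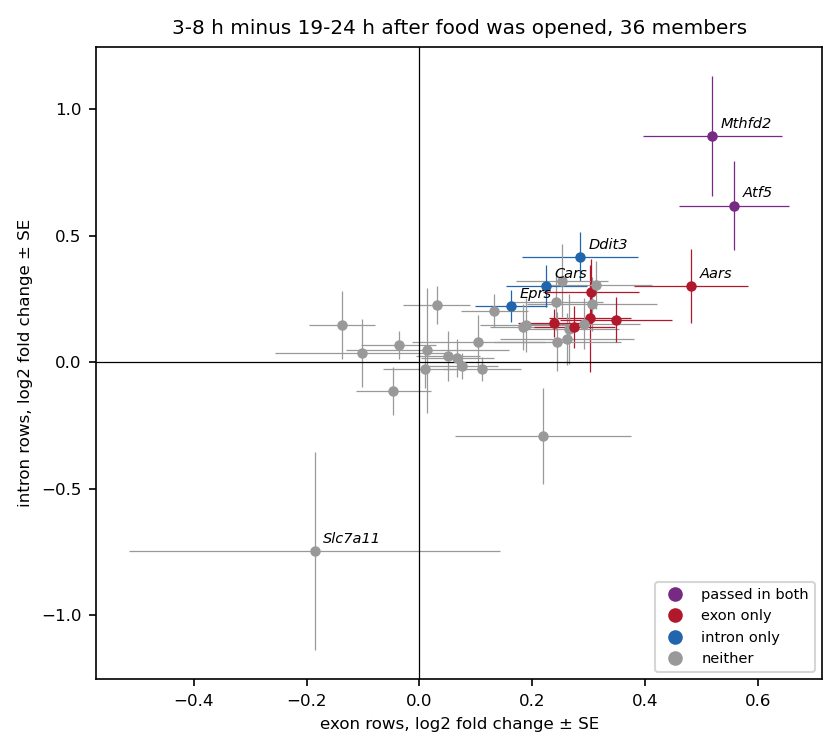
Log2 fold change of intron rows (vertical axis) against exon rows (horizontal axis), 3 to 8 h against 19 to 24 h after food was opened, for 36 genes, with SE bars. Mthfd2 and Atf5, called in both, lie at the upper right; Slc7a11, called in neither, lies at the lower left.

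Mean level over the day was compared between the feeding groups. EN against MD had 7 of the 37 genes higher and 1 lower, where 15.9% of all genes were called higher and 14.4% lower. MD against ED had 1 higher and 6 lower, where 11.2% of all genes were called higher and 11.8% lower. EN against ED had none, where 0.00% of all genes were called higher and 0.00% lower by edgeR; 2 of the 37 had an unadjusted p under 0.05, as did 961 genes in all, and DESeq2 called 0 of the 37 and 6 in all. Without the second day 4 genes in place of 7 were higher in EN than in MD, in a fit where calls over all genes were not counted. On the side that is lower in MD, the shares of the 37 genes called are near those of all genes, so these counts are no result about the 37. Of the 10 distinct genes called, 5 are synthesis enzyme genes (Asns, Phgdh, Mthfd2, Psph and Psat1) and the others are Atf5, Gars, Sars, Iars and Slc3a2. These comparisons share the MD, EN or ED pools and are not independent of each other.

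Asns averaged 28.03 ± 4.12 CPM in EN, 20.4 ± 3.5 CPM in MD and 27.9 ± 4.9 CPM in ED (SD, n = 8 pools each). Its difference was 0.47 ± 0.10 (SE) for EN against MD and -0.46 ± 0.10 for MD against ED on the log2 scale (adjusted p = 0.00138 and 0.00280, edgeR). Phgdh, the first enzyme gene of serine synthesis, averaged 60.3 ± 8.9 CPM in EN, 42.0 ± 10.5 CPM in MD and 58.5 ± 8.3 CPM in ED, with differences of 0.50 ± 0.12 and -0.45 ± 0.12 (adjusted p = 0.00304 and 0.00964, edgeR). Mthfd2 averaged 10.4 ± 2.5 CPM in EN, 6.64 ± 0.99 CPM in MD and 9.90 ± 2.73 CPM in ED, with differences of 0.56 ± 0.13 and -0.51 ± 0.13 (adjusted p = 0.00301 and 0.00791, edgeR). Every MD pool of Asns and Mthfd2, and every one of Phgdh but that of ZT12, lay below the means of EN and ED, yet the ranges of the groups overlapped. Atf5 and Gars, for glycine, were likewise higher in EN than in MD and lower in MD than in ED. Psph and Sars, for serine, were higher in EN than in MD, Psat1 was lower in MD than in ED, and Iars was lower in EN than in MD. Slc3a2 was higher in MD than in ED, at 0.16 ± 0.05. Atf4 itself averaged 116 ± 14 CPM in EN, 115 ± 11 CPM in MD and 118 ± 15 CPM in ED and was called in none of the 3 pairs.

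**Figure D5:**
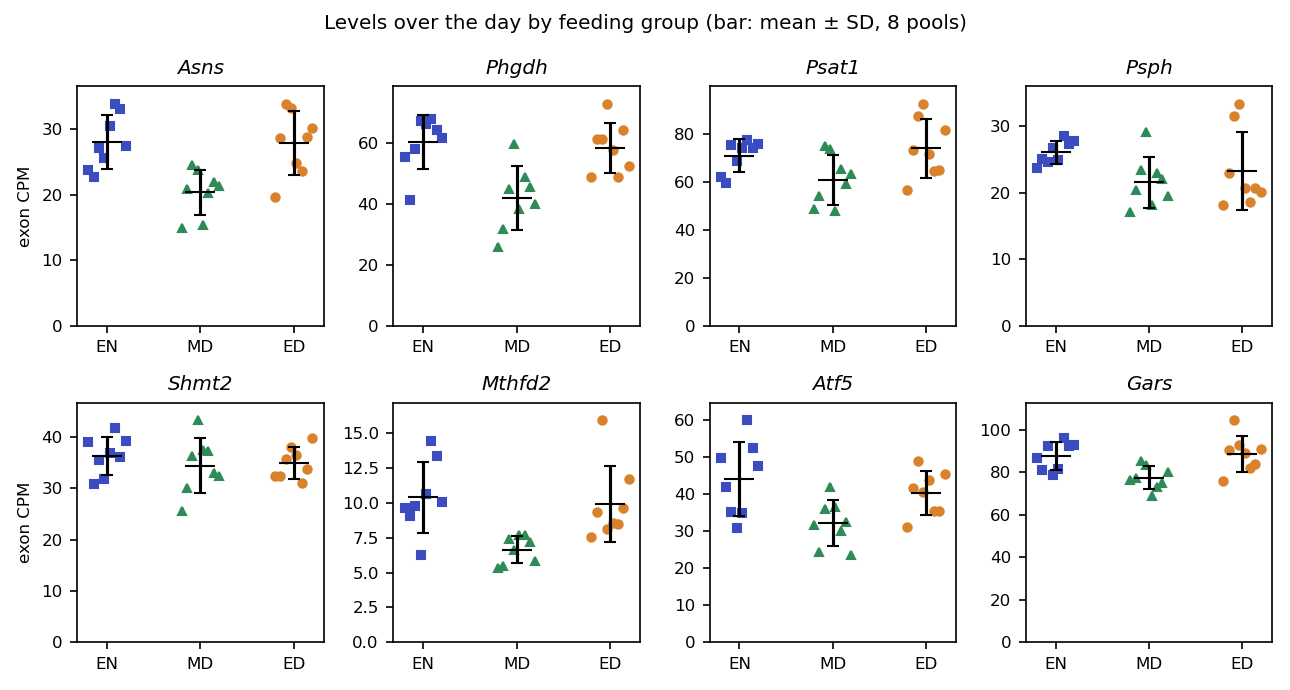
Exon CPM of 8 genes in the 8 pools of each feeding group, with bars at the mean ± SD. For Asns, Phgdh and Mthfd2 the MD means, at 20.4, 42.0 and 6.64 CPM, lie below those of EN and ED, while the Shmt2 means lie close together.

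MD pools also differed from the rest in markers of other cells. Summed adipocyte markers were 958 to 2023 CPM in EN, 592 to 940 CPM in MD and 973 to 1465 CPM in ED, so that MD did not overlap the other groups. Fibroblast sums were 27336 to 53107 CPM in EN, 17619 to 27888 CPM in MD and 28455 to 47682 CPM in ED, and immune sums 881 to 1236, 591 to 992 and 718 to 1242 CPM. Skeletal muscle sums ran the other way, with medians of 13651 CPM in EN, 18420 CPM in MD and 11015 CPM in ED, and ranges of 8419 to 20261, 11363 to 20448 and 6739 to 20024 CPM that overlap. No marker of these lists was at 0 in the pools as a whole. The part of these markers in the differences of mean level was not tested.

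Per length, on the scale of the RPKM values in the deposited table, the most abundant of the 37 was Atf4, with a median of 63.4 RPKM (44.5 to 75.7 RPKM over the 24 pools). Nupr1 followed with 48.7 RPKM, Qars with 44.3 RPKM and Eprs with 44.0 RPKM, of which the ranges overlap. The rarest were Slc7a11 with 0.205 RPKM, Trib3 with 2.61 RPKM, Chac1 with 4.11 RPKM and Mthfd2 with 4.21 RPKM. Chac1 had the widest range relative to its level, 1.67 to 16.4 RPKM. By CPM its highest pool was EN at ZT0, which carried RNA of the growing follicle's markers.

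Across the 24 pools, which share library, depth and feeding group, the log2 levels of the synthetase genes had a median pairwise Pearson r of 0.42 over 190 pairs, from -0.67 to 0.86. Among the 17 other genes the median was 0.10 over 136 pairs, and between a synthetase and another gene 0.19 over 340 pairs. Qars stood apart from the other synthetase genes, with a median r of -0.44 with them. The genes most like Atf4 were Aars with r = 0.77 and Tars with r = 0.74, and Chac1 was the least like it, at r = -0.61. Asns was most like Psat1 (r = 0.90), Gars (r = 0.85) and Phgdh (r = 0.84). For the 6 pairs of pools of 1 group sampled a day apart, the median absolute log2 difference was 0.16 over the 37 genes and 0.19 over all genes.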

How the data were processed

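The deposited table holds raw read counts per gene model, with separate exon, intron and antisense rows, per the file headers. The labels' protocols give Trizol RNA pooled from 2 to 4 animals and a stranded total RNA kit; TopHat2, SAMtools, HOMER and mm10 are named, without versions, in the submitters' processing notes, and which program did the counting is not given. A second deposited table holds RPKM values made with cqn by the authors, per the file headers, and served for levels per length and as an alternative. Of rows sharing a symbol the one with the highest exon count was kept, which left out 2114 rows. Each of the 24 columns matched the title of 1 library.

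Exon counts were filtered with filterByExpr (minimum count 10, minimum total 15), scaled by TMM and tested with edgeR 4.0.16 (limma 3.58.1, R 4.3.3; DESeq2 1.42.0 as an alternative). CPM is per TMM-scaled library size, and log2 CPM used a prior count of 2. All adjusted p-values are from quasi-likelihood F tests with Benjamini-Hochberg adjustment over all genes tested, at 0.05. The class model held feeding group, clock time (6 levels) and hours since food was opened in 3 classes (14 residual degrees of freedom). The model with a 24 h curve in hours since food and in ZT had 17, and the models by feeding group 15. The script was tested on simulated counts, where 19.4% of 67 genes with a change of 0.3 on the log2 scale were called. For changes of 0.6 and 1 the shares were 68.2% and 84.6%. A gene that was not called is therefore not shown to be unchanged. Values were named for all genes passing the main test and Atf4, and for called genes of the further lists. The genes and the further lists were chosen with earlier results of these data known. Promoter windows and their coordinates are RefSeq's (GRCm38.p6; 1 promoter stretch is not reported here), and coordinates of genes come from a GENCODE annotation of GRCm38 (mm10) by symbol match. Atf5, Shmt2, Slc7a5, Wars, Yars, Farsb and Hars overlap a coding gene on the other strand, and so do Ddit3 and Mars each other; the deposited antisense rows were kept apart.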

Additional observations from a re-analysis of the deposited data

Results flagged for a closer look

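In each class of pools, the gap in log2 CPM of the highest or lowest pool to its neighbour was divided by the log2 range of the class. This share was taken for 37 genes in 3 classes (111 groups), and the levels below are printed as CPM. In 10 groups this share was above Dixon's 95% critical value; chance flags about 1 in 20 groups.

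At 3 to 8 h, Atf4 was highest in the ED pool of ZT8 at 145 CPM, with the next pool at 131 CPM (share 0.582). Wars was highest in the ED pool of ZT28 at 32.1 CPM, next 25.9 CPM (0.673), and Qars lowest in the same pool at 91.6 CPM, next 101 CPM (0.646). At 11 to 16 h, Nupr1 was highest in the EN pool of ZT0 at 132 CPM, next 93.0 CPM (0.845), in 1 of the 2 pools with growing follicle RNA. Cars was highest in the ED pool of ZT16 at 43.5 CPM, next 40.3 CPM (0.601). Shmt2 was lowest in the EN pool of ZT4 at 30.8 CPM, next 36.05 CPM (0.650), Iars in the EN pool of ZT28 at 45.4 CPM, next 54.2 CPM (0.639), and Lars in the MD pool of ZT16 at 47.7 CPM, next 59.8 CPM (0.612). At 19 to 24 h, the MD pool of ZT0, which had the highest intron share at 42.5%, was the lowest for Vars at 41.1 CPM, next 56.1 CPM (0.548), and for Shmt2 at 25.6 CPM, next 30.1 CPM (0.495).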

How the results depend on the processing

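Main counts were 8 higher and 1 lower. Under RLE or upper quartile scaling, no clock time term, no low-count filter, DESeq2 (12 higher) and limma on log2 RPKM plus 0.5 or 0.1 (10 higher), the number called higher stayed between 7 and 12, with 1 lower. Over all genes the main fit called 376 higher and 386 lower. DESeq2 called 587 and 552, and limma 514 and 560 with 0.5 or 515 and 566 with 0.1. Without the clock time term the numbers were 249 and 202. With sampling time as a replicate block, 13 were higher and 1 lower, and over all genes 505 and 507. Same-numbered pools share a clock time only, and their deviations correlated by a median r of 0.07 (-0.15 to 0.24, 24 pairs), with 9 of 48 best matched to their own time. With the code L1 to L8 in place of feeding group, 0 were higher and 0 lower, and over all genes 3 and 13. Of the 8 codes, 6 hold pools of 1 feeding group. Without the 2 pools with growing follicle RNA (ED ZT24, EN ZT0) 5 were higher, without the second day 3, and for 3 to 4 h against 23 to 24 h 1 was higher and 0 lower. Over all genes 370 were higher and 375 lower without those 2 pools. Without the second day these numbers fell to 174 and 199, and for 3 to 4 h against 23 to 24 h to 52 and 61. Leaving out each pool in turn gave 2 to 12 higher and 0 to 1 lower. No call reversed its sign in any of these. Mthfd2 ranged from 0.14 to 0.60 and Atf5 from 0.15 to 0.64, lowest with the code; Chac1 ranged from -1.56 to -1.05.

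The food time rhythm was called in 3 genes, in 1 without the ZT terms, in 1 without the second day and in 6 by DESeq2's likelihood ratio test. Rhythms within ED and EN fell to 0 and 0 without the second day, and to 0 and 0 without those 2 pools. EN against MD had 4 higher without the second day, and 2 lower without those 2 pools. With exon scaling factors 2 intron rows were higher. The causes were not tested. Each group has 1 pool per time, and low counts limit Slc7a11, Trib3 and Chac1.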
